A study of Homo sapiens with 9 samples.

Results

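The genes described here are 10 parts of the nuclear factor kappa B (NF-kB) system. They are the DNA-binding subunits NFKB1, NFKB2, RELA, RELB and REL, the inhibitors NFKBIA, NFKBIE and NFKBIZ, the ubiquitin-editing enzyme TNFAIP3 and the ubiquitin ligase BIRC3. They were chosen by name, with earlier results of these data known. All 10 were found, each in 1 row, among the 58037 genes of the deposited RPKM table (reads per kilobase of gene, scaled to sequencing depth). RNA-seq of total RNA was run on 3 human lines of triple-negative breast cancer grown in serum-containing medium. Values below are listed in the order MDA-MB-231, then MDA-MB-436, then MDA-MB-453 unless a line is named. Each line gave 1 control library, 1 library labelled GSK343 (a small-molecule inhibitor of the histone methyltransferase EZH2) and 1 labelled shEZH2 (a short hairpin RNA against EZH2), so there were 3 libraries per group and 9 in all. The sample labels call the controls untreated while the column headers name them shControl, so it is not settled whether they carried a control hairpin. The sources used here give no dose, time, or number of hairpins or clones. The lines serve as replicates. In the treatment tests the level of each line is removed, and p-values measure how far treatment effects vary between lines, pooled over both labels. The treated libraries of a line share its control, yet the model treats the libraries as independent once that level is removed. For the mean of both labels, p-values and intervals can therefore be smaller than the spread of that mean between lines would give. The series asks how gene expression responds when EZH2 is knocked down or inhibited.

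In resting cells, NF-kB dimers are held in the cytoplasm by inhibitor of kappa B (IkB) proteins, of which NFKBIA encodes the main one. Signals from tumour necrosis factor, interleukin 1 or Toll-like receptors activate the IkB kinase, which marks IkB for destruction and lets RELA-containing dimers enter the nucleus. A second, slower branch works through BIRC3-controlled turnover of a kinase and the processing of the NFKB2 precursor, which partners with RELB. NFKBIA, NFKBIE, TNFAIP3 and BIRC3 are themselves textbook NF-kB targets that feed back on the pathway, and NFKBIZ encodes a nuclear IkB-like protein that acts as a cofactor at a subset of inflammatory promoters. In breast cancer cells of the basal type, NF-kB is known for driving inflammatory cytokine genes.

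NF-kB dimers bind a motif of 10 bases, the kB consensus, and several genes of the pathway are known to carry it near their own starts. The 250 bases before each annotated RefSeq start (build GRCh38.p14) were searched on both strands, and overlapping matches were counted as 1. Of the 8 genes with a RefSeq start in the table used, 7 held at least 1 match, and RELA held none at its 2 starts. Counted by window, 9 of the 13 start windows of these genes held a match and 4 held 2 or more. Among all 35116 start windows of the same length 5.21% held a match, and 0.253% held 2 or more. TNFAIP3 and BIRC3 held 2 matches before a single start, and NFKB2 held 2 before each of 2 alternative starts. A second form, GGG then any 2 bases then TTTCC, was searched in the same way. It was found in 7 of the 8 genes, in 8 of their 13 windows and in 1.73% of all windows. TNFAIP3 was the member with 2 matches to it in 1 window, which 0.0313% of all windows have. The stretches below are shown because their genes are the ones compared next. The first set gives the sites of TNFAIP3, NFKB1 and REL and 3 of the 4 of NFKB2, with a few bases on each side, 5′ to 3′ on the strand of the gene (plus for each), with the matches in capitals. Except for that of NFKB1, these matches overlap an exon of their gene in the GENCODE annotation, although they lie before the RefSeq start.
TNFAIP3, chr6:137867188-137867217: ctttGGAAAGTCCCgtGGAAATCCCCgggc
NFKB2, start 2, chr10:102394463-102394489: aacgtcatGGGAATTCCCCcctccggg
NFKB2, start 2, chr10:102394492-102394517: gccgagaaGGGGCTTTCCcggccctg
NFKB2, start 3, chr10:102395676-102395701: gtattttcGGGACTTTCCtaagctgc
NFKB1, start 1, chr4:102501302-102501327: acgtcagtGGGAATTTCCagccagga
REL, chr2:60881519-60881545: tcagccgcGGGAAATTCCCctcccgcc

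The second set gives the upstream DNA of NFKBIZ, NFKBIA and BIRC3, cut off where the first annotated exon begins. NFKBIZ and NFKBIA are both IkB family genes with 1 match near their first start, and the first passed the expression tests below while the second did not. The match lies 223 bases before the start in NFKBIZ and 81 bases before it in NFKBIA. BIRC3 has its matches 199 and 135 bases before the start. A match describes these letters and does not show that a factor was bound.
NFKBIZ, start 1, chr3:101827740-101827989, plus strand: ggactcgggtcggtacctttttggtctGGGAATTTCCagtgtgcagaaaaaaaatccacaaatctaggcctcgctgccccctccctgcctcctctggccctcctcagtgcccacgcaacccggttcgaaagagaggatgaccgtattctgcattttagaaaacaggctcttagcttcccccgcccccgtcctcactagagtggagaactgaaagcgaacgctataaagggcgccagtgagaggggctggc
NFKBIA, chr14:35404750-35404999, minus strand: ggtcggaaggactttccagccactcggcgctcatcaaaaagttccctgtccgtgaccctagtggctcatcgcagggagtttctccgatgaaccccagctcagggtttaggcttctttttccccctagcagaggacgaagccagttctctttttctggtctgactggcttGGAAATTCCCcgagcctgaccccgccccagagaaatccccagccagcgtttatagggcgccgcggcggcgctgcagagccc
BIRC3, chr11:102317234-102317449, plus strand: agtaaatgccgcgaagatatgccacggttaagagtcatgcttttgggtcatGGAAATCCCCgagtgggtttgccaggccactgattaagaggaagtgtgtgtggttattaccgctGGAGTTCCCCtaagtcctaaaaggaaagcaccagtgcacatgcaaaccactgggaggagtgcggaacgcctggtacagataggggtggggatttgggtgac

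**Figure D1:**
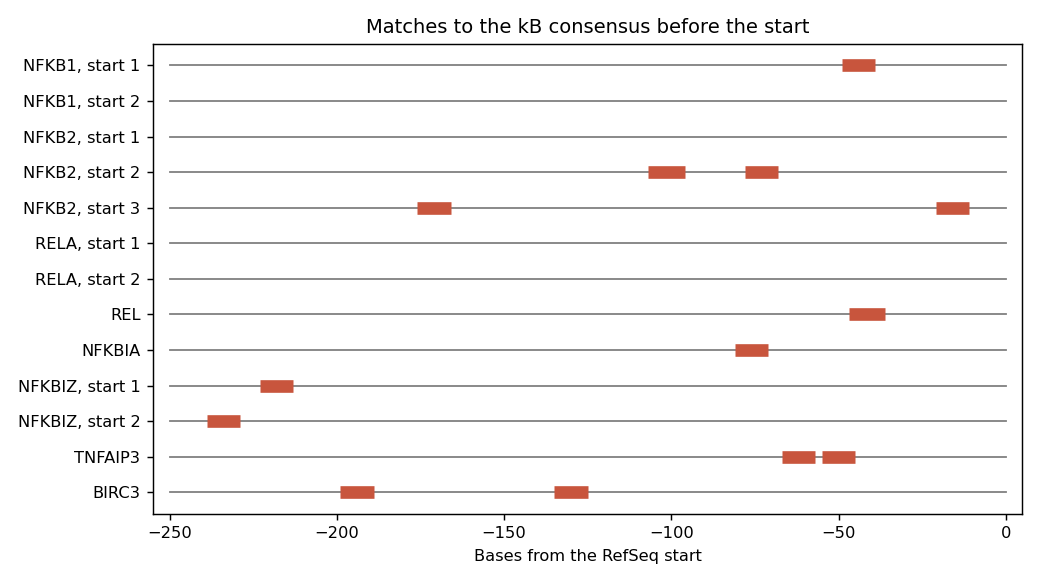
Positions of matches to the kB consensus (red blocks) in the 250 bases before each RefSeq start of 8 genes. The x axis gives the distance from the start in bases and each line is 1 start. The 2 TNFAIP3 matches lie side by side 67 to 46 bases before the start, while both RELA lines are empty.

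The libraries rested on 14757043 to 18283426 reads each, as the steps between low RPKM values show, and 22975 to 27230 genes were above 0 in a library. The transcript of EZH2 went against the labels: it fell to RPKM of 5.77, 7.53 and 7.99 in the libraries labelled GSK343 (controls 27.4, 38.9 and 42.3, adjusted p = 0.000424, limma). In those labelled shEZH2 it was 16.4, 37.4 and 16.2 (adjusted p = 0.0597, limma). The treated groups are therefore called by their labels throughout. The libraries labelled MDA-MB-453 did not stand out in markers of the luminal type to which this line belongs. FOXA1, a luminal transcription factor, was at 1.01 to 2.37 RPKM in them, against 2.77 to 3.31 in MDA-MB-436, and SPDEF, another, was at 5.90 to 20.1 against 24.4 to 43.0 in MDA-MB-231. Their values lay between those of the other lines for 42.8% of the 7420 genes with a mean RPKM of at least 5 in the controls, for 73.7% under the GSK343 label and for 85.1% under the shEZH2 label. For the 10 NF-kB genes this held in 4, 9 and 10 cases. Whether these 3 libraries are a replicate independent of the other lines was not tested, and the main p-values count them as such. The treatment comparisons of the members are given with and without them. ESR1 and PGR, the hormone receptors absent from triple-negative tumours, reached at most 0.0602 and 0.0254 RPKM in any library. Immune cell markers summed to 4.52 to 6.42 RPKM in controls, 6.20 to 8.52 under the GSK343 label and 9.18 to 13.0 under the shEZH2 label. Of these 7 markers 5 were under 1 RPKM in all 9 libraries, CD3E, a T cell marker, was at 0 in 8 of 9, and PTPRC, the pan-leukocyte marker, reached 0.203 at most. Most of the sum came from CD14 (3.78 to 12.5 RPKM). Of 4 endothelial and fibroblast markers 3 were under 1 RPKM in all libraries, with sums of 1.09 to 2.70, 0.810 to 2.38 and 0.899 to 4.47 in the controls and under the GSK343 and shEZH2 labels. The 5 mesenchymal markers summed to 677 to 963 RPKM in controls, 451 to 630.3 under the GSK343 label and 424 to 595 under the shEZH2 label. These sums did not overlap between controls and treated groups. Of the 5, VIM and CAV1 were lower without overlap, while AXL and CD44 overlapped. SPARC went the other way at a low level, with 0.111 to 0.257 RPKM in controls and 0.274 to 0.580 in treated libraries. The 5 epithelial markers summed to 137 to 332, 70.6 to 262 and 69.1 to 322 RPKM, which overlap. The part of any of these markers in the results was not tested.

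TNFAIP3 and NFKBIZ were the members that rose under either label. TNFAIP3 encodes A20, which removes activating ubiquitin chains from signalling complexes and so ends NF-kB signalling. The gene (ENSG00000118503.14) lies at chr6:137867188-137883312 on the plus strand of GRCh38. Its control RPKM was 5.46, 30.8 and 22.3. Under the GSK343 label it was 20.7, 106 and 52.6, and under the shEZH2 label 9.27, 110.2 and 60.0. Every treated library was above the control of its own line, and the groups overlapped, with MDA-MB-231 lowest in each condition. The ratio of RPKM to the control of the line was 3.80, 3.45 and 2.36 under the GSK343 label and 1.70, 3.58 and 2.69 under the shEZH2 label. On the scale of RPKM + 1, averaged over lines, TNFAIP3 rose 2.97-fold under the GSK343 label (log2 fold change 1.57 ± 0.49, 95% interval, adjusted p = 0.00285). Under the shEZH2 label it rose 2.44-fold (1.29 ± 0.49, adjusted p = 0.00752). These values rest on 462 to 9912 reads per library. In bulk RNA, a change in the share of cells that express a gene and a change in RNA per cell cannot be told apart.

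NFKBIZ (ENSG00000144802.11, chr3:101827991-101861022, plus strand) also rose, to 1.66 to 2.54 times the control of the line. Its RPKM was 3.76, 8.16 and 7.54 in the controls, 9.55, 17.95 and 12.5 under the GSK343 label and 8.84, 16.5 and 13.6 under the shEZH2 label. All 3 libraries of each treated group were above all 3 controls, a separation seen in 6.67% and 7.39% of all genes tested under the GSK343 and shEZH2 labels. The fold change of RPKM + 1 was 1.94 (0.95 ± 0.31, adjusted p = 0.00318) under the GSK343 label and 1.89 (0.92 ± 0.31, adjusted p = 0.00379) under the shEZH2 label. With the mean of both labels against the controls, TNFAIP3 rose 2.69-fold (1.43 ± 0.43, adjusted p = 0.00118) and NFKBIZ 1.91-fold (0.94 ± 0.27, adjusted p = 0.000983). Without the libraries labelled MDA-MB-453, which leaves 2 lines, both genes passed for the mean of the labels (TNFAIP3 1.496, adjusted p = 0.0430; NFKBIZ 1.04, adjusted p = 0.0249) and NFKBIZ passed under the GSK343 label (1.10, adjusted p = 0.0469). TNFAIP3 under the GSK343 label (1.75, adjusted p = 0.0653) and both genes under the shEZH2 label (TNFAIP3 1.24, adjusted p = 0.113; NFKBIZ 0.99, adjusted p = 0.0617) then did not pass. TNFAIP3 under the shEZH2 label was also lost when only the MDA-MB-453 control was left out (1.36, adjusted p = 0.0555). With no filter on low values TNFAIP3 did not pass under the GSK343 label (adjusted p = 0.106), the shEZH2 label (0.126) or their mean (0.0591), and NFKBIZ did not under the GSK343 (0.0651) or shEZH2 label (0.0681).

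**Figure D2:**
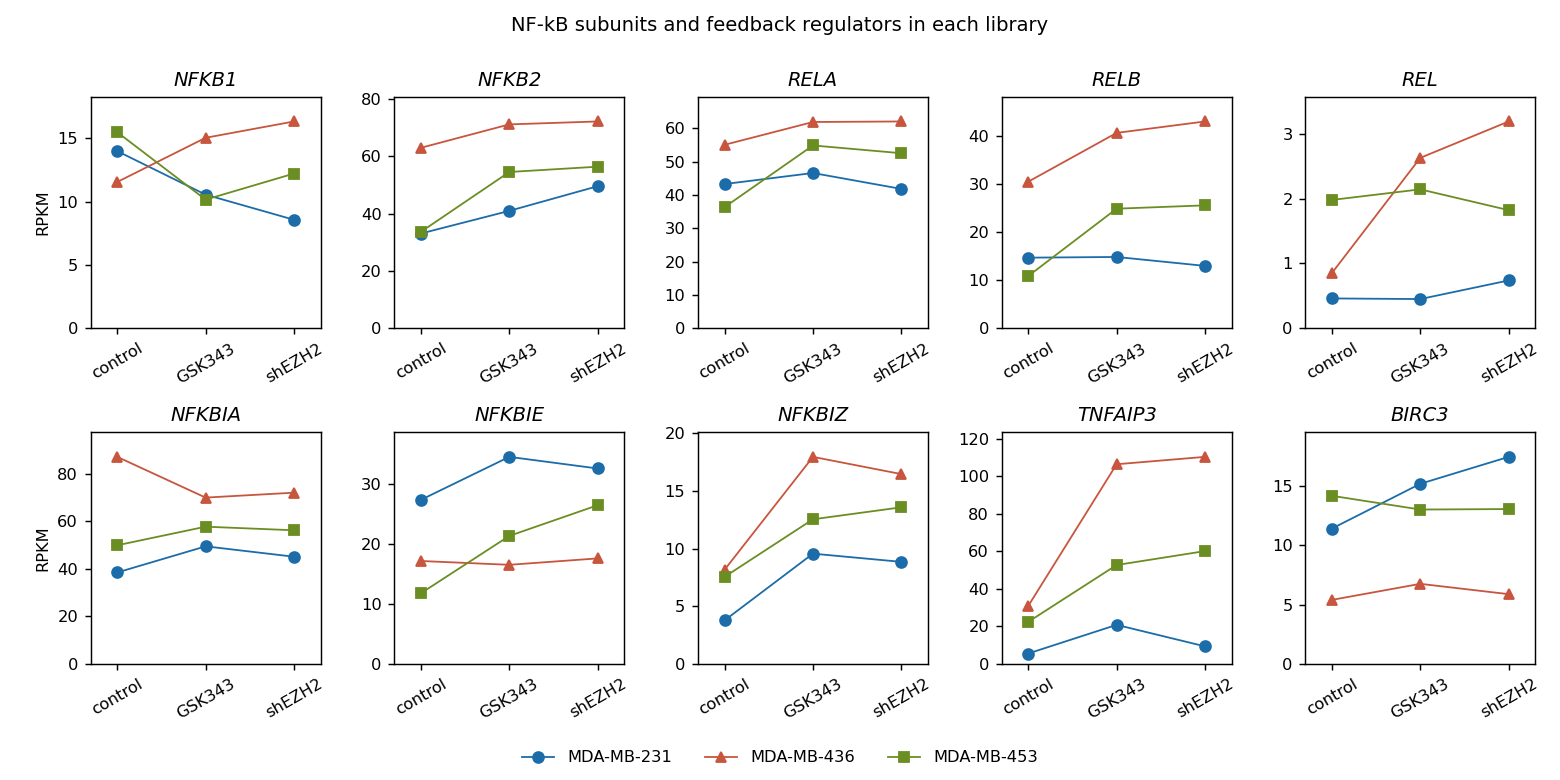
RPKM of the 10 genes in each of the 9 libraries, 1 panel per gene, with the condition on the x axis and 1 coloured line per cell line (points are single libraries). TNFAIP3 and NFKBIZ climb from the control in all 3 lines, while NFKBIA and NFKB1 lie on opposite sides of the control in MDA-MB-231 and MDA-MB-436.

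As a count, 2 of the 10 genes rose and 0 fell under the GSK343 label, where 7.85% of the 12965 genes tested were called by limma at an adjusted p under 0.05, 6.25% higher and 1.6% lower. Under the shEZH2 label 2 rose and 0 fell, against 10.6% of all genes, 8.35% higher and 2.28% lower. For the mean of both labels 3 rose and 0 fell, against 16.5%, 12.2% higher and 4.3% lower. The median log2 fold change of the 10 genes was 0.35, 0.46 and 0.40 in these comparisons, beside 0.06, 0.05 and 0.05 over all genes tested. Above the control of the line in 3 of 3 lines stood 5 members under the GSK343 label, where 26.3% of all genes did so. With shEZH2 as the label there were 4 (27.5% of all genes). Without the libraries labelled MDA-MB-453, 1, 0 and 2 members passed under the GSK343 label, the shEZH2 label and their mean, beside 43, 16 and 145 of the 12965 genes. These comparisons share their control libraries and are not independent of each other. The members were chosen with earlier results of these data known, so their counts and medians are not independent evidence of a direction.

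Among the subunits, the partners of the slower branch stood higher in most treated libraries, though few tests passed. NFKB2, which encodes the precursor of p52 (ENSG00000077150.18, chr10:102394110-102402529, plus strand), had RPKM of 33.1, 63.0 and 33.7 in the controls, 41.0, 71.2 and 54.6 under the GSK343 label and 49.6, 72.2 and 56.4 under the shEZH2 label. Each treated library was above its own control, and the groups overlapped. By line, the mean of both labels stood 0.44, 0.18 and 0.70 above the control on the log2 scale. NFKB2 rose 1.36-fold for the mean of both labels (0.44 ± 0.29, adjusted p = 0.0401), but did not pass under the GSK343 label (0.38 ± 0.33, adjusted p = 0.134) or the shEZH2 label (0.50 ± 0.33, adjusted p = 0.0559). The call for the mean was lost in 14 of 19 alternative settings, among them without the libraries labelled MDA-MB-453 (0.31, adjusted p = 0.237) and under median-ratio rescaling (0.33, adjusted p = 0.116). Of the 9 libraries, it was lost without any single one except the control of MDA-MB-436, with log2 fold changes of 0.31 without the control labelled MDA-MB-453 to 0.49 without the MDA-MB-436 library labelled shEZH2.

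RELB encodes the subunit that pairs with p52. Controls had 14.7, 30.5 and 10.9 RPKM, the libraries labelled GSK343 14.8, 40.7 and 24.9, and those labelled shEZH2 13.0, 43.0 and 25.6. MDA-MB-231 stayed near its control, MDA-MB-436 stood at 1.33 and 1.41 times its control, and the libraries labelled MDA-MB-453 at 2.29 and 2.35 times theirs. The groups overlapped. RELB did not pass under the GSK343 label (0.51 ± 0.47, adjusted p = 0.155), the shEZH2 label (0.49 ± 0.47, adjusted p = 0.154) or for their mean (0.50 ± 0.40, adjusted p = 0.0820). It passed under the GSK343 label (0.80, adjusted p = 0.0378) and the shEZH2 label (0.78, adjusted p = 0.0374) when the control of MDA-MB-231 was left out. For the mean it passed in 2 of 19 alternative settings, without that control (0.79, adjusted p = 0.0207) and without that line (0.79, adjusted p = 0.0458). Without the libraries labelled MDA-MB-453 its log2 fold change was 0.21 and 0.16.

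RELA, which encodes the transactivating p65 subunit of the rapid branch, was among the 4 members with the highest mean in each group. It had 43.3, 55.1 and 36.4 RPKM in the controls, 46.6, 61.9 and 54.9 under the GSK343 label and 41.8, 62.1 and 52.5 under the shEZH2 label. The groups overlapped, and the library labelled MDA-MB-453 was the one furthest from its control under each label (1.51 and 1.44 times). The fold changes did not pass (0.28 ± 0.33, adjusted p = 0.255, and 0.21 ± 0.33, adjusted p = 0.379). Without the libraries labelled MDA-MB-453 they were 0.14 and 0.06.

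NFKB1, which encodes the p50 partner of RELA, stood above its control in 1 line and below it in the others. Its RPKM was 14.0, 11.6 and 15.5 in the controls, 10.6, 15.1 and 10.2 under the GSK343 label and 8.58, 16.3 and 12.2 under the shEZH2 label. MDA-MB-436 was the higher one (1.30 and 1.41 times), while MDA-MB-231 (0.754 and 0.613) and the libraries labelled MDA-MB-453 (0.656 and 0.789) stood below. Averaged over lines, NFKB1 did not pass (-0.19 ± 0.44, adjusted p = 0.568, and -0.17 ± 0.44, adjusted p = 0.624), and without the libraries labelled MDA-MB-453 it stood at -0.01 and -0.09.

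REL, the subunit best known from lymphocytes, was the least abundant member. It had 0.461, 0.852 and 1.98 RPKM in the controls, 0.452, 2.63 and 2.14 under the GSK343 label and 0.739, 3.19 and 1.82 under the shEZH2 label. MDA-MB-436 stood at 3.08 and 3.74 times its control, whereas the other lines lay between 0.920 and 1.60 times theirs. The tests over lines did not pass (0.35 ± 0.47, adjusted p = 0.336, and 0.45 ± 0.47, adjusted p = 0.193), nor without the libraries labelled MDA-MB-453 (0.48 and 0.71). In the GENCODE annotation 43.3% of the exon bases of REL are shared with AC010733.2, a gene on the same strand. How reads in shared exons were counted is not stated, so the level of REL is uncertain.

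**Figure D3:**
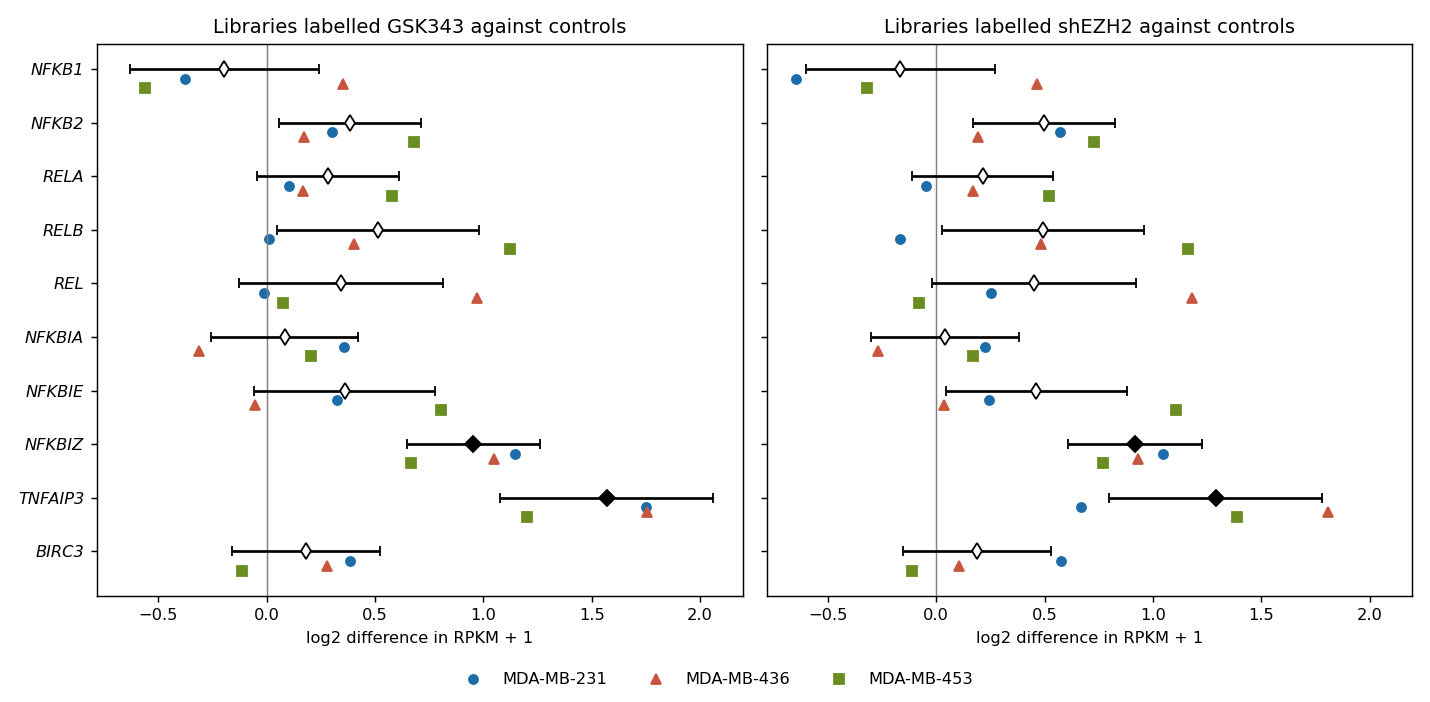
Log2 difference in RPKM + 1 between treated and control libraries for the 10 genes, libraries labelled GSK343 on the left and shEZH2 on the right. Diamonds with bars are the limma estimate over lines with its 95% interval (filled where adjusted p is under 0.05), and coloured symbols are the single lines. The diamonds of NFKBIZ and TNFAIP3 are the filled ones in each panel.

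Among the cytoplasmic inhibitors, NFKBIA (ENSG00000100906.10, chr14:35401511-35404749, minus strand) had no direction shared by the 3 lines. Its RPKM was 38.4, 87.1 and 49.9 in the controls, 49.5, 69.99 and 57.7 under the GSK343 label and 45.1, 72.1 and 56.2 under the shEZH2 label. MDA-MB-436 was below its control (0.803 and 0.827 times) and the other lines stood at 1.13 to 1.29 times theirs. The mean fold change of NFKBIA was near 0 under each label (0.08 ± 0.34, adjusted p = 0.775, and 0.04 ± 0.34, adjusted p = 0.888). Its sign turned under median-ratio rescaling (-0.03 and -0.06), and without the libraries labelled MDA-MB-453 it stood at 0.02 and -0.02. The intervals reach 0.42 and 0.38, so increases up to those log2 sizes are not excluded.

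NFKBIE, which encodes IkB epsilon, had 27.4, 17.2 and 11.8 RPKM in the controls, 34.6, 16.5 and 21.4 under the GSK343 label and 32.6, 17.6 and 26.5 under the shEZH2 label. The libraries labelled MDA-MB-453 were furthest above their control (1.81 and 2.25 times), and MDA-MB-436 was at 0.963 and 1.03 times its own. NFKBIE did not pass (0.36 ± 0.42, adjusted p = 0.257, and 0.46 ± 0.42, adjusted p = 0.138), and without the libraries labelled MDA-MB-453 it stood at 0.14 under either label.

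BIRC3, which encodes cIAP2, a ubiquitin ligase of receptor complexes, had 11.4, 5.397 and 14.2 RPKM in the controls. It had 15.2, 6.75 and 13.0 RPKM under the GSK343 label and 17.5, 5.88 and 13.1 under the shEZH2 label. MDA-MB-231 was the line furthest above its control (1.33 and 1.53 times), and the libraries labelled MDA-MB-453 were slightly below theirs. BIRC3 did not pass (0.18 ± 0.34, adjusted p = 0.493, and 0.19 ± 0.34, adjusted p = 0.461), nor without the libraries labelled MDA-MB-453 (0.33 and 0.34).

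Within single lines, where there is 1 library per condition and no test, the members that stood at least 1.5-fold above the control on the scale of RPKM + 1 were counted. In MDA-MB-231 they were NFKBIZ and TNFAIP3 under both labels, where 7.56% (GSK343) and 9.56% (shEZH2) of all genes did so. NFKB1 was at least 1.5-fold lower there under the shEZH2 label, as were 5.72% of all genes, and under the GSK343 label no member was (4.56% of all genes). In MDA-MB-436 they were REL, NFKBIZ and TNFAIP3 under both labels (11.8% and 10.1% of all genes), and no member was as far below (3.6% and 3.2%). In the libraries labelled MDA-MB-453 they were NFKB2, RELB, NFKBIE, NFKBIZ and TNFAIP3 under both labels (16% and 17.4% of all genes), and again no member was as far below (9.05% and 7.63%). NFKBIZ and TNFAIP3 were thus the members past this size in each line and under each label. The share of all genes that did so throughout was not counted, and both labels of a line share its control. NFKB1 and NFKBIA were the 2 members whose libraries moved one way in MDA-MB-231 and the other way in MDA-MB-436 under both labels, a pattern held by 20.2% of all genes.

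Whether the response, as the mean of both labels, differed between the 3 lines was tested with an F-test. No member passed, and 3 of 12965 genes did (0.0231%). At an unadjusted p under 0.05 there were 6 members and 3710 genes. The span between the highest and lowest line was widest for RELB (1.22 on the log2 scale, adjusted p = 0.0856), at -0.08, 0.44 and 1.14 in the order of lines used throughout. It was 1.07 for REL (adjusted p = 0.102), 0.96 for NFKBIE (adjusted p = 0.1004) and 0.92 for NFKB1 (adjusted p = 0.109). It was smallest for NFKBIZ (0.38, adjusted p = 0.298). The test depends strongly on MDA-MB-231: without its GSK343-labelled library 9 members and 3966 genes passed, without its shEZH2-labelled library 6 members and 4049 genes, and without the line 7 members and 3387 genes. No member passed when any other single library or line was left out. Leaving out a treated library of MDA-MB-231, or the line, also takes its label difference out of the spread. The counts without them therefore do not show that the response differs between lines.

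The libraries labelled GSK343 were also compared directly with those labelled shEZH2. No member passed, and by limma 0 of 12965 genes did (0%). At an unadjusted p under 0.05 there were 0 members and 295 genes. TNFAIP3 had the largest estimate, 0.28 ± 0.49 higher under the GSK343 label (adjusted p = 0.9998), which leaves room for differences from -0.21 to 0.77. For NFKBIZ the interval ran from -0.27 to 0.35 and for NFKB2 from -0.44 to 0.22. These intervals do not show that the groups under the labels are alike. The labels were furthest apart for TNFAIP3 in MDA-MB-231, at 20.7 RPKM in the library labelled GSK343 against 9.27 in that labelled shEZH2.

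The levels of the members also differed between the lines themselves. Averaged over the 3 conditions, TNFAIP3 was at 11.8 ± 7.95 RPKM in MDA-MB-231 and 82.4 ± 44.8 in MDA-MB-436 (SD, n = 3 conditions), with a log2 difference of -2.68 ± 0.49 (MDA-MB-231 minus MDA-MB-436, adjusted p = 1.05e-06). RELB was at 14.2 ± 1.03 and 38.1 ± 6.65 RPKM (-1.35 ± 0.47, adjusted p = 0.000167). NFKB2, RELA, REL, NFKBIA and NFKBIZ were lower in MDA-MB-231 as well (log2 differences of -0.43 to -0.98). BIRC3 went the other way, at 14.7 ± 3.06 RPKM in MDA-MB-231 and 6.01 ± 0.687 in MDA-MB-436 (1.15 ± 0.34, adjusted p = 5.39e-05), and so did NFKBIE (0.84 ± 0.42, adjusted p = 0.00227). In all, 2 members were higher and 7 lower in MDA-MB-231, where 63.4% of all genes tested differed, 28.6% higher and 34.8% lower. NFKB1 did not pass (-0.36 ± 0.44, adjusted p = 0.136). The call for RELA (-0.43 ± 0.33, adjusted p = 0.0239) was lost in 7 of 16 alternative settings. They include leaving out the control (-0.39), the GSK343-labelled (-0.48) or shEZH2-labelled one (-0.43) of MDA-MB-436, or, of MDA-MB-231, the GSK343-labelled (-0.41) or shEZH2-labelled one (-0.35). NFKB1 passed without the control of MDA-MB-436 (-0.65, adjusted p = 0.00558). Conditions stand in as replicates here, and the model removes the mean level of each condition. These p-values therefore measure how far line differences vary between conditions, pooled over all 3 lines. They do not measure the SDs given above or the spread between repeat cultures of a line.

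**Figure D4:**
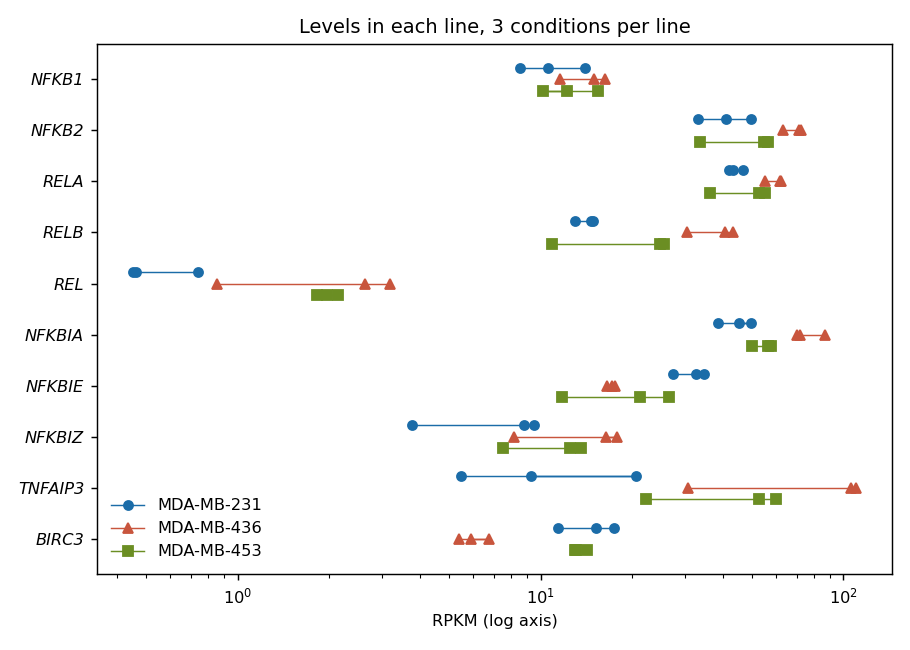
RPKM of the 10 genes on a log axis, with 1 row of 3 points (control, GSK343 and shEZH2 labels) per line, joined by a line. RELB, NFKBIA and TNFAIP3 lie higher in MDA-MB-436 than in MDA-MB-231 in every condition, and BIRC3 and NFKBIE lie lower.

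In order of level per gene length, NFKBIA (mean RPKM 58.5 ± 25.5, SD, n = 3), RELA (44.9 ± 9.46) and NFKB2 (43.3 ± 17.1) led in the controls, and their ranges overlapped. NFKB2 was above the next member in 3 of 3 libraries with no overlap. TNFAIP3 (19.5 ± 12.9), NFKBIE (18.8 ± 7.93), RELB (18.7 ± 10.4), NFKB1 (13.7 ± 1.99), BIRC3 (10.3 ± 4.497) and NFKBIZ (6.49 ± 2.38) followed with ranges that overlapped from each to the next. REL was last (1.10 ± 0.788) and below NFKBIZ in 3 of 3 libraries. TNFAIP3 came after NFKB2 by its mean in the controls and led by its mean under the GSK343 (59.9 ± 43.2) and shEZH2 (59.8 ± 50.5) labels, though its range overlapped that of the second member in both. It was above that member in 1 of 3 libraries under the GSK343 label and in 2 of 3 under the shEZH2 label. NFKBIZ ranked 9 of 10 in the controls and 7 of 10 under each label.

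The profiles of members over the 9 libraries, after removing each line's mean, are given as a description, since the libraries share lines and conditions. RELA and RELB were most alike (Pearson r = 0.979), followed by NFKBIZ and TNFAIP3 (0.927), NFKB2 and NFKBIE (0.868) and RELA and NFKBIE (0.860). NFKB1 ran opposite to NFKBIA (-0.816) and to NFKB2 (-0.666). Among the other genes at a mean RPKM of at least 5, those closest to TNFAIP3 were TRAF1 (0.991), ATRAID (0.991) and BCL2L13 (0.990). Closest to NFKB2 were MMAB (0.997), CRAT (0.995) and CSNK1D (0.994), and closest to NFKBIA were NDUFB10 (0.975), NR2F6 (0.961) and SPANXB1 (0.946).

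The rest of the pathway was followed through 6 lists holding 136 genes, ordered from ligands to targets, for the mean of both labels, under which 12.2% of all genes tested were higher and 4.3% lower. Of 13 ligands 4 were abundant enough to test. IL1B, the inflammatory ligand of the interleukin 1 receptor, rose (1.83 ± 0.79, adjusted p = 0.00725), from 5.15, 131 and 63.9 RPKM to 75.1, 250.5 and 130.2 under the GSK343 label and 59.6, 245 and 151 under the shEZH2 label. IL1A (0.75 ± 0.85), TNFSF12 (0.33 ± 0.39) and TNFSF10 (0.12 ± 0.42) did not pass, and TNF was under the filter. Of 14 receptors tested 2 rose and 0 fell, a share near that of all genes. TNFRSF1B, the second receptor for tumour necrosis factor, rose from a mean RPKM of 2.45 ± 2.37 to 7.07 ± 3.76 and 7.84 ± 4.44 under the GSK343 and shEZH2 labels (SD, n = 3; log2 fold change 1.40 ± 0.30, adjusted p = 0.000257). TLR4, the lipopolysaccharide receptor, rose by 0.54 ± 0.36 (adjusted p = 0.0438), although it was at or under 0.0919 RPKM in every MDA-MB-436 library.

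Of 24 adaptors 4 rose and 1 fell, where 12.2% of all genes rose and 4.3% fell, so these shares are near the background. TRAF1, an adaptor that is itself an NF-kB target, rose from RPKM of 5.51, 6.09 and 5.51 in the controls to 13.2, 15.5 and 10.9 under the GSK343 label and 8.59, 14.1 and 12.8 under the shEZH2 label (0.99 ± 0.31, adjusted p = 0.00145). All of its treated libraries were above all controls. RIPK2, the kinase of NOD receptors, rose by 0.61 ± 0.26 (adjusted p = 0.00703) and IRAK2, a kinase of the interleukin 1 receptor complex, by 0.58 ± 0.27 (adjusted p = 0.00958). CARD10, a scaffold that links surface receptors to the IkB kinase, fell by 0.60 ± 0.29 on the log2 scale (adjusted p = 0.0125). The 13 genes of the IkB kinase complex and upstream kinases were also near that background, with 2 that rose and 0 that fell. They were MAP3K8 (0.81 ± 0.26, adjusted p = 0.00159), a kinase held inactive by the NFKB1 precursor, and IKBKE (0.67 ± 0.34, adjusted p = 0.0157), a kinase related to the IkB kinases. IKBKG, the scaffold of the IkB kinase, did not pass (0.29 ± 0.28, adjusted p = 0.146).

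Of 20 further IkB proteins and inhibitors 5 rose and 0 fell, beside 12.2% and 4.3% of all genes. ZC3H12A, a ribonuclease that degrades inflammatory transcripts, rose by 1.16 ± 0.42 (adjusted p = 0.00342), NFKBID by 0.62 ± 0.31 (adjusted p = 0.0137), NFKBIB by 0.68 ± 0.37 (adjusted p = 0.0192) and TNIP1, a partner of A20, by 0.50 ± 0.29 (adjusted p = 0.0263). Of 41 target genes tested 29 rose and 1 fell, with a median log2 fold change of 0.88. LCN2, an iron-siderophore binding protein (3.82 ± 0.53), and the cytokine IL6 (1.87 ± 0.26) shared the smallest adjusted p of the list, 1.14e-05. The neutrophil chemokine CXCL8 stood at 24.3, 85.6 and 72.1 RPKM in the controls and at 127, 344 and 202 under the GSK343 label. Medians of the other lists were 0.54 for ligands, 0.14 for receptors, 0.19 for adaptors, 0.06 for kinases and 0.26 for inhibitors, beside 0.05 over all genes. Without the libraries labelled MDA-MB-453 10 target genes, TNFRSF1B, TRAF1 and MAP3K8 passed as higher and CARD10 as lower, and IL1B, TLR4, RIPK2, IRAK2, IKBKE and the inhibitors did not pass. In that setting 128 of the 12965 genes were higher and 17 lower. The lists, that of target genes included, were drawn up with results of these libraries known and are not independent evidence of their direction.

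**Figure D5:**
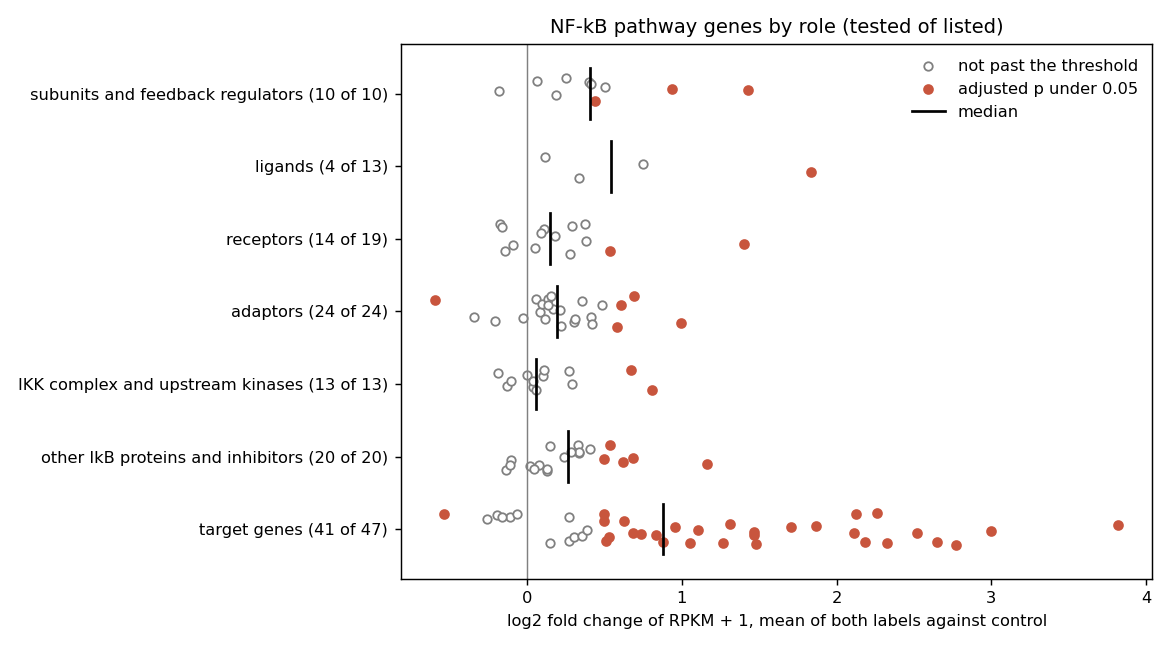
Log2 fold change of RPKM + 1 for the mean of both labels against the controls, 1 point per gene tested, grouped by role (y axis: tested of listed genes). Filled points have an adjusted p under 0.05 and black bars mark the median of each list, which is 0.88 for target genes and 0.40 for the 10 subunits and feedback regulators.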

How the data were processed

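The authors deposited 1 table of RPKM values with 9 columns, all used (0 unused columns). The tools STAR and HTSeq and the build GRCh38 come from the submitters' processing notes. The sources used here do not give versions, annotation or strand setting, and values of overlapping genes are uncertain. Columns were assigned by their headers. Multiplied by exon length in GENCODE release 29 (92.5% of identifiers matched with version), low values were whole multiples of 1 step (100% within 0.05 of a read), from which the depth was read.

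The 12965 genes that reached 1 RPKM in 3 or more libraries were fitted as log2(RPKM + 1) by limma 3.58.1 (R 4.3.3). The model held treatment plus line (4 residual degrees of freedom), a mean-variance trend and 2-sided p-values with Benjamini-Hochberg adjustment over all genes tested (threshold 0.05). Fold changes are those of RPKM + 1 and understate changes of low genes. The F-test between lines used a mean per line in the control and targeted state (3 residual degrees of freedom). Its spread is the difference between the labels within a line. Libraries of the same line deviated together (correlations of deviations from group means 0.358 to 0.953 across genes). Between lines the correlations were -0.957 to 0.0903. Deviations from a group mean cancel out within the group, which pushes correlations between lines downward, so that contrast is no test of pairing. The lines pair the samples by design. The 3 lines, as labelled, are the replicates, each with 1 library per condition, so an exact test by sign flips has a smallest p of 0.25. The fit was tested on simulated data.

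Named genes are the 10 members, EZH2, up to 4 genes per list with the smallest p for the mean of both labels, and the 3 genes closest in profile to NFKBIA, NFKB2 and TNFAIP3. Members and lists were chosen with earlier results of these data known. Alternatives were a pseudocount of 0.1, no filter, a mean RPKM of at least 5, median-ratio and common-sum rescaling, no trend, no line term, and leaving out each library or line. Promoter sequences and their positions are from RefSeq (GRCh38.p14).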

Additional observations from a re-analysis of the deposited data

How the results depend on the processing

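Counts of genes past the threshold moved with the filter, the line term and the libraries left out. The filter also changes how many genes are tested, 12965 in the main fit and 7420 at a mean RPKM of at least 5. For GSK343 against control (1018) the count was 14 with no filter and 2 with no replicate block, and 43 to 1250 with single libraries or lines left out. For shEZH2 against control (1377) it was 15 with no filter, 2 with no replicate block and 16 to 1621 with libraries or lines left out. For the mean of both labels (2141) it was 186 with no filter, 1386 at a mean RPKM of at least 5, 3 with no replicate block and 145 to 2053. For GSK343 against shEZH2 (0) it was 1 at a mean RPKM of at least 5 and 0 to 3 with libraries or lines left out. For MDA-MB-231 against MDA-MB-436 it was 8224 of 12965 genes in the main fit and 4722 of 7420 at a mean RPKM of at least 5. For the difference between lines (3) it was 887 with no filter, 7 at a mean RPKM of at least 5, 1 on a common sum and 0 to 4049 with libraries or lines left out. Pairing by line is the design, and without the block no member passed for any treatment comparison. Signs turned for estimates near 0. Under median-ratio rescaling NFKBIA was -0.029 (GSK343), -0.061 (shEZH2) and -0.045 (mean), and on a common sum the difference between the labels was -0.047 for RELB, -0.027 for NFKBIA and -0.029 for NFKBIZ. With single libraries or lines left out, NFKBIA ran from -0.053 to 0.28 (GSK343), -0.073 to 0.22 (shEZH2) and -0.052 to 0.24 (mean), NFKB1 from -0.48 to 0.073 and BIRC3 from -0.00258 to 0.34 (both shEZH2). The difference between the labels then ran from -0.22 to 0.15 for NFKB1, -0.016 to 0.15 for RELA, -0.18 to 0.20 for RELB, -0.30 to 0.10 for REL, -0.048 to 0.16 for NFKBIA, -0.21 to 0.11 for NFKBIE, -0.027 to 0.15 for NFKBIZ, -0.12 to 0.51 for TNFAIP3 and -0.10 to 0.13 for BIRC3. NFKBIZ and TNFAIP3 kept their direction against the controls in all 19 alternatives. NFKB2 passed under the shEZH2 label at a mean RPKM of at least 5 (adjusted p = 0.0457), on a common sum (0.0495) and without the control of MDA-MB-436 (0.0309). NFKBIE passed for the mean of both labels without that control (0.62, adjusted p = 0.0418). The cause of these shifts was not tested. REL was under the filter at a mean RPKM of at least 5 and, at 0.452 to 3.19 RPKM, has the lowest levels of the members.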
